A study of Bos taurus with 9 samples.

Results

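The 6 genes described here build, hold and bind the hyaluronan-aggrecan aggregate of cartilage: ACAN, HAPLN1, HAPLN3, HAS2, CD44 and TNFAIP6. Their probe sets were taken by symbol, as every set whose only gene symbol was one of these names. This gave 11 of the 24016 probe sets tested, for 6 of the 9155 genes named. The genes were chosen with earlier results of these data known, so that their counts and medians beside those of all genes only describe them. ACAN and HAS2 had 3 probe sets each, TNFAIP6 had 2, and HAPLN1, HAPLN3 and CD44 had 1 each. Where a gene had several, the set of highest mean over the 9 arrays stood for the gene and the other sets are given beside it.

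Bovine single-colour arrays, 1 for each RNA sample, were run in 3 groups of 3 arrays. The first group, chondrocytes_day28, was articular chondrocytes placed in agarose gel directly after isolation and kept for 28 days. The second, MSC_day28, was bone marrow mesenchymal stem cells (MSCs, stromal cells able to form cartilage) kept in agarose for the same 28 days. Both day 28 groups were grown in defined medium with 10 ng/mL TGF-beta3, a growth factor that drives cartilage formation. The third, MSC_day0, was MSCs harvested right after embedding at day 0. All cells came from the same 3 calves, aged 3 to 6 months, and each calf gave 1 array to each group. No group without TGF-beta3 at day 28 and no group of freshly embedded chondrocytes was analysed here, so that time, gel and growth factor cannot be told apart. The labels do not give the passage of the MSCs.

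Aggrecan, the product of ACAN, is a proteoglycan whose many chondroitin sulfate chains hold the water that lets cartilage bear load. Its amino-terminal domain binds hyaluronan, a long unbranched polysaccharide spun out at the cell membrane by synthases such as HAS2, and link proteins such as HAPLN1 lock that bond. CD44 is the main cell-surface receptor that ties such aggregates to the cell, and TNFAIP6 is a secreted hyaluronan-binding protein that moves heavy chains of inter-alpha-inhibitor onto hyaluronan.

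Values are the deposited log2 signals, on which a difference of 1 is a change of 2-fold. Each difference stands with its standard error in the limma model (n = 3 per group), and a difference was called at a Benjamini-Hochberg adjusted p under 0.05 over all 24016 probe sets. These are bulk samples, so that a lower signal from fewer cells of a type and from less RNA per cell cannot be told apart. The 5 chondrocyte markers named on the array, COL2A1, COL9A1, COL11A2, COMP and CNMD, averaged 10.88 to 11.05 in chondrocytes, 9.90 to 10.52 in day 28 MSCs and 4.39 to 4.68 in day 0 MSCs. Between the day 28 groups CNMD alone was called (3.93 ± 0.35, adjusted p = 0.000214), and the other 4 differed by -0.31 to 0.13. Of the 8 marrow stromal markers, all were measured, and their mean ran from 4.97 to 5.27 in chondrocytes, from 5.02 to 5.81 in day 28 MSCs and from 5.73 to 6.49 in day 0 MSCs. In MSCs over time, 1 was called higher (MCAM, 1.49) and 2 lower (NT5E, -0.81, and CXCL12, -4.07), where 34.5% of all genes were called. VCAM1 was also lower by its estimate but not called (-2.64 ± 0.89, adjusted p = 0.0511). The median difference of the 8 markers was -0.05. The lower mean of day 28 MSCs thus does not show a fall of these markers as a set. On the third replicates of both day 28 groups, chondrocytes_day28 replicate 3 and MSC_day28 replicate 3, the bioC hybridisation controls averaged 8.80, against 11.66 on the other 7 arrays. Signal at the 3′ end minus the 5′ end was averaged over 3 control transcripts. This mean ran from 0.342 to 0.460 in chondrocytes, from 0.493 to 0.774 in day 28 MSCs and from 0.160 to 0.282 in day 0 MSCs. These ranges do not overlap, but those of each single transcript overlap between some groups. Actin ran from 1.31 to 1.69 in chondrocytes, from 1.43 to 1.68 in day 28 MSCs and from 1.64 to 1.92 in day 0 MSCs. EF1A was negative on every array. The part of these controls in the results below was not tested.

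Over 28 days in MSCs, ACAN, HAPLN1 and TNFAIP6 rose and HAPLN3 and CD44 fell, while the leading HAS2 probe set did not pass. By probe set, 6 of 11 were higher and 2 lower in day 28 than in day 0 MSCs, where 30.2% of all probe sets were called (14.6% higher and 15.6% lower). By gene, 3 of 6 rose and 2 fell, against 34.5% of all 9155 genes called. The median absolute difference was 2.03 over the 6 genes and 0.403 over all genes. After the same 28 days, chondrocytes had more HAPLN3 and more TNFAIP6 than MSCs, and the other 4 genes were not called by their leading set. There, 4 of 11 probe sets were called, all of them higher, where 10.3% of all probe sets were called (6.27% higher and 4.06% lower). By gene 2 of 6 were called, against 13.2% of all genes called. Between chondrocytes and day 0 MSCs, 7 of 11 probe sets were higher and 1 lower, where 31% of all probe sets were called (15.1% higher and 15.9% lower). By gene, 3 of 6 were higher and 1 lower, against 36% of all genes called (15.1% higher and 20.9% lower).

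**Figure D1:**
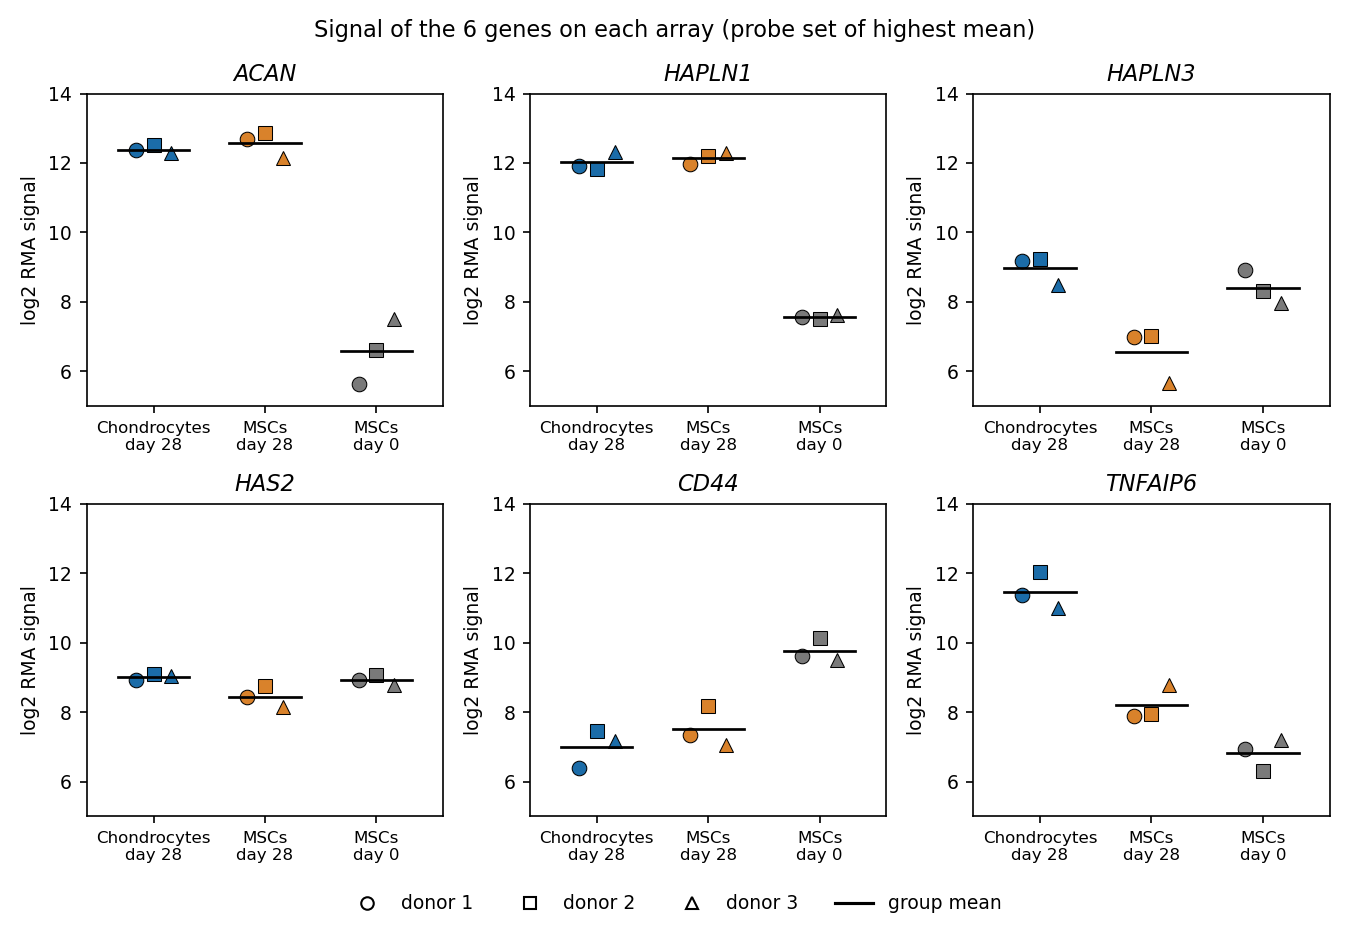
Log2 signal of each gene on each of the 9 arrays, by the probe set of highest mean, with chondrocytes at day 28, MSCs at day 28 and MSCs at day 0 from left to right. Symbols mark the 3 donors and bars the group means (n = 3). ACAN and HAPLN1 were above 11.8 on all 6 day 28 arrays and below 7.7 on the 3 day 0 arrays, HAPLN3 was lowest in day 28 MSCs, and TNFAIP6 stood highest in chondrocytes.

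**Figure D2:**
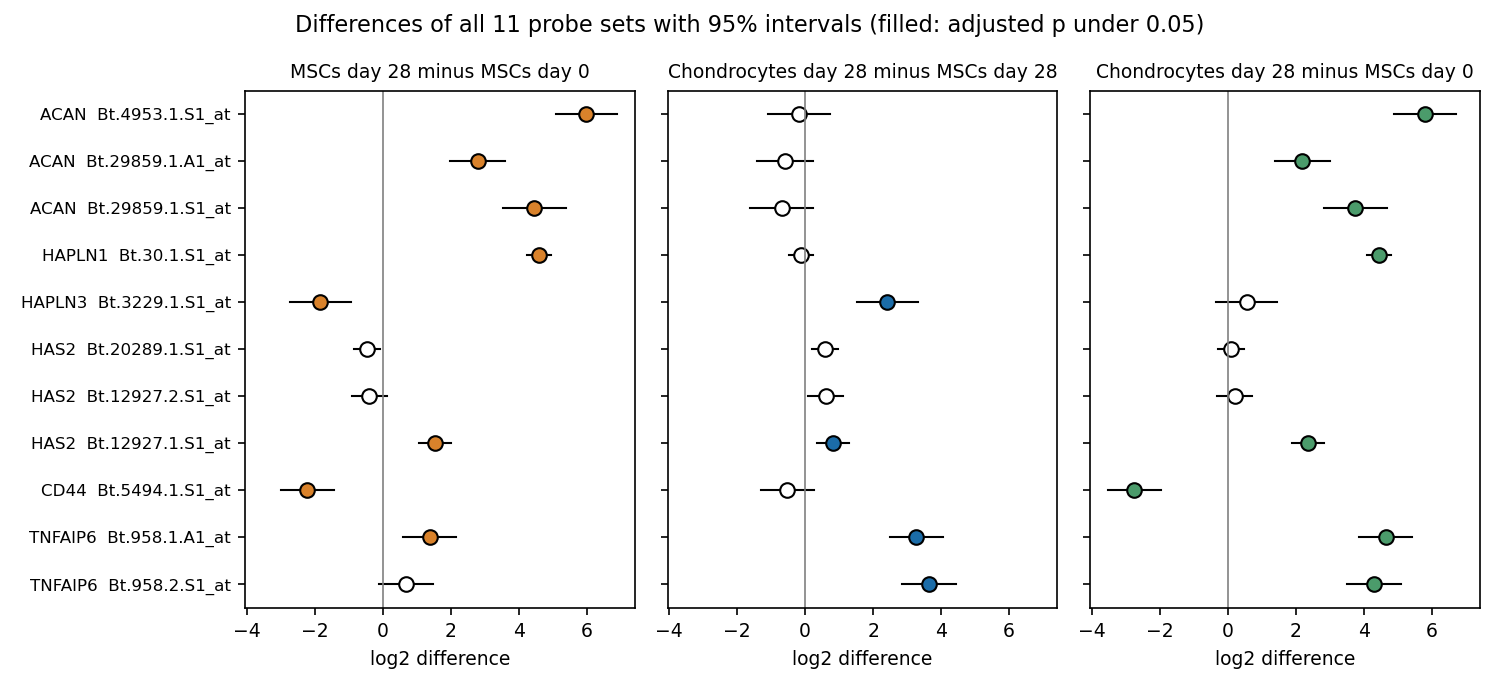
Log2 differences of all 11 probe sets in the 3 comparisons, with 95% confidence intervals from limma. Filled points were called at an adjusted p under 0.05. The 3 HAS2 probe sets differ in sign in the first comparison, and the ACAN, HAPLN1 and CD44 intervals include 0 in the second.

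ACAN encodes the aggrecan core protein. Its leading probe set, Bt.4953.1.S1_at, read 12.37, 12.51 and 12.28 in chondrocytes of donors 1, 2 and 3. In day 28 MSCs it read 12.70, 12.87 and 12.15, and in day 0 MSCs 5.63, 6.63 and 7.50. All 6 day 28 arrays lay at least 4.65 above the highest day 0 array, and the day 28 groups overlapped. The difference of day 28 from day 0 MSCs was 5.99 ± 0.40 (63.5-fold, 95% interval 5.08 to 6.90, adjusted p = 1.66e-05), the 20th largest absolute difference among 9155 genes. Within donors it was 7.07, 6.25 and 4.65. Donor 3, with the smallest change, had the highest day 0 and the lowest day 28 MSC signal, and both values enter that change. Set against day 28 MSCs, chondrocytes differed by -0.19 ± 0.40 (interval -1.10 to 0.72, adjusted p = 0.850). That interval covers any difference from about 2.14-fold lower to 1.64-fold higher in chondrocytes, so that it does not show equal levels. Chondrocytes exceeded day 0 MSCs by 5.80 ± 0.40 (1.50e-05).

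The other ACAN sets gave the same calls. Bt.29859.1.A1_at read 6.67, 6.93 and 6.47 in chondrocytes, 7.33, 8.04 and 6.47 in day 28 MSCs and 4.92, 4.33 and 4.22 in day 0 MSCs. It was higher by 2.79 ± 0.36 in day 28 than in day 0 MSCs (adjusted p = 0.000471) and by 2.20 ± 0.36 in chondrocytes than in day 0 MSCs (0.00178). Bt.29859.1.S1_at read 6.08, 6.26 and 5.94 in chondrocytes, 6.73, 7.70 and 5.94 in day 28 MSCs and 1.74, 2.69 and 2.57 in day 0 MSCs, and was higher by 4.46 ± 0.41 in day 28 than in day 0 MSCs (8.25e-05). Its day 0 mean of 2.33 lay below the 25th percentile of probe set means (2.58), so that the size of this difference rests on a low signal. Neither passed between chondrocytes and day 28 MSCs (-0.59, adjusted p = 0.374, and -0.69, adjusted p = 0.357). On each of these sets the 2 arrays with low hybridisation controls hold the identical value, so that donor 3 showed no difference between the day 28 groups. Of all probe sets, 35.9% hold a repeat between some arrays, which need not be this pair. The cause of the repeats was not tested.

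The day 0 MSC arrays differed in ACAN by the leading set, which spanned 1.87 on the log2 scale (3.66-fold, SD 0.94). Each donor gave 1 array there, so that differences between donors and between arrays cannot be told apart. Donor 3 was highest and donor 1 lowest by that set. That order did not carry over to the other sets, where donor 1 was highest on Bt.29859.1.A1_at and donor 2 on Bt.29859.1.S1_at. In chondrocytes the same leading set spanned 0.23 (SD 0.12), and in day 28 MSCs 0.72 (SD 0.37).

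HAPLN1, the cartilage link protein, read 11.92, 11.84 and 12.30 in chondrocytes, 11.98, 12.20 and 12.29 in day 28 MSCs and 7.55, 7.52 and 7.63 in day 0 MSCs. The day 0 arrays lay within 0.11 of each other (SD 0.06), against a span of 1.87 for the leading ACAN set on the same arrays. HAPLN1 was higher by 4.59 ± 0.16 in day 28 than in day 0 MSCs (24.1-fold, adjusted p = 3.34e-07), by 4.43, 4.68 and 4.66 in the 3 donors. Chondrocytes exceeded day 0 MSCs by 4.45 ± 0.16 (4.13e-07). In chondrocytes against day 28 MSCs it differed by -0.13 ± 0.16 (adjusted p = 0.692), with an interval of -0.49 to 0.22 that is the narrowest of the 6 genes. The day 28 groups overlapped.

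HAPLN3, a link protein found in many tissues outside cartilage, moved the other way. It read 9.18, 9.23 and 8.48 in chondrocytes, 6.99, 7.02 and 5.66 in day 28 MSCs and 8.92, 8.30 and 7.96 in day 0 MSCs. Day 28 MSCs lay below every array of the other groups, which overlapped each other. HAPLN3 fell by 1.84 ± 0.40 in day 28 against day 0 MSCs (3.59-fold lower, adjusted p = 0.00705), with -1.94, -1.29 and -2.30 in the 3 donors. Chondrocytes exceeded day 28 MSCs by 2.41 ± 0.40 (5.31-fold, adjusted p = 0.00542), with 2.19, 2.21 and 2.82 in the donors. Chondrocytes and day 0 MSCs differed by 0.57 ± 0.40 (interval -0.33 to 1.46, adjusted p = 0.325). Donor 3 gave the lowest HAPLN3 signal in each group, and 2 of those 3 arrays were those with low hybridisation controls. With low controls as a term in the model the difference of chondrocytes from day 0 MSCs was 0.91 and passed (0.0305). Without donor 1 the calls ended at -1.79 in MSCs over time (0.0601) and at 2.52 between chondrocytes and day 28 MSCs (0.0638), the second also without donor 2 (2.51, 0.0780). These fits rest on 6 arrays.

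ACAN and HAPLN3 are next to each other in the RefSeq gene order of the assembly ARS-UCD2.0, and HAPLN1 is next to VCAN, which encodes versican, the large hyaluronan-binding proteoglycan of embryonic and fibrous matrix. In both neighbouring pairs, 1 gene rose and the other fell in MSCs over 28 days. VCAN read 8.45, 9.31 and 8.45 in chondrocytes, 6.53, 6.18 and 5.88 in day 28 MSCs and 10.29, 10.35 and 10.43 in day 0 MSCs. The 3 groups did not overlap. It fell by 4.16 ± 0.25 in MSCs (adjusted p = 9.71e-06), was higher by 2.54 ± 0.25 in chondrocytes than in day 28 MSCs (0.000370) and lower by 1.62 ± 0.25 in chondrocytes than in day 0 MSCs (-1.62, 0.00134). The 2 further VCAN sets were called in the same directions, at -4.81 and -4.55 in MSCs and at 2.54 and 2.02 between chondrocytes and day 28 MSCs. HAPLN3 and VCAN were thus both lowest in day 28 MSCs, whereas ACAN and HAPLN1 were lowest in day 0 MSCs.

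The genes around these pairs were measured as well. MFGE8, which follows HAPLN3 and encodes a secreted protein that bridges dying cells to phagocytes, fell by 1.11 ± 0.22 in MSCs over time (adjusted p = 0.00411), and ABHD2 beyond it did not pass (0.68 ± 0.32, 0.146). XRCC4, a DNA repair gene on the far side of VCAN, fell by 1.03 ± 0.14 (0.000507), and COX7C, a subunit of cytochrome oxidase, fell by 0.71 ± 0.12 (0.00192). EDIL3, between HAPLN1 and COX7C, has no named probe set here. In chondrocytes against day 28 MSCs none of MFGE8, ABHD2, XRCC4 and COX7C passed, with differences from -0.44 to 0.33 and adjusted p-values from 0.0731 to 0.873. Against day 0 MSCs, chondrocytes had less XRCC4 (-1.48 ± 0.14, 7.44e-05), COX7C (-0.81 ± 0.12, 0.000991) and MFGE8 (-0.78 ± 0.22, 0.0228), the last of which ended without any 1 of the 3 donors (-0.94 to -0.65, adjusted p up to 0.138) and without 3 of the 6 single arrays.

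**Figure D3:**
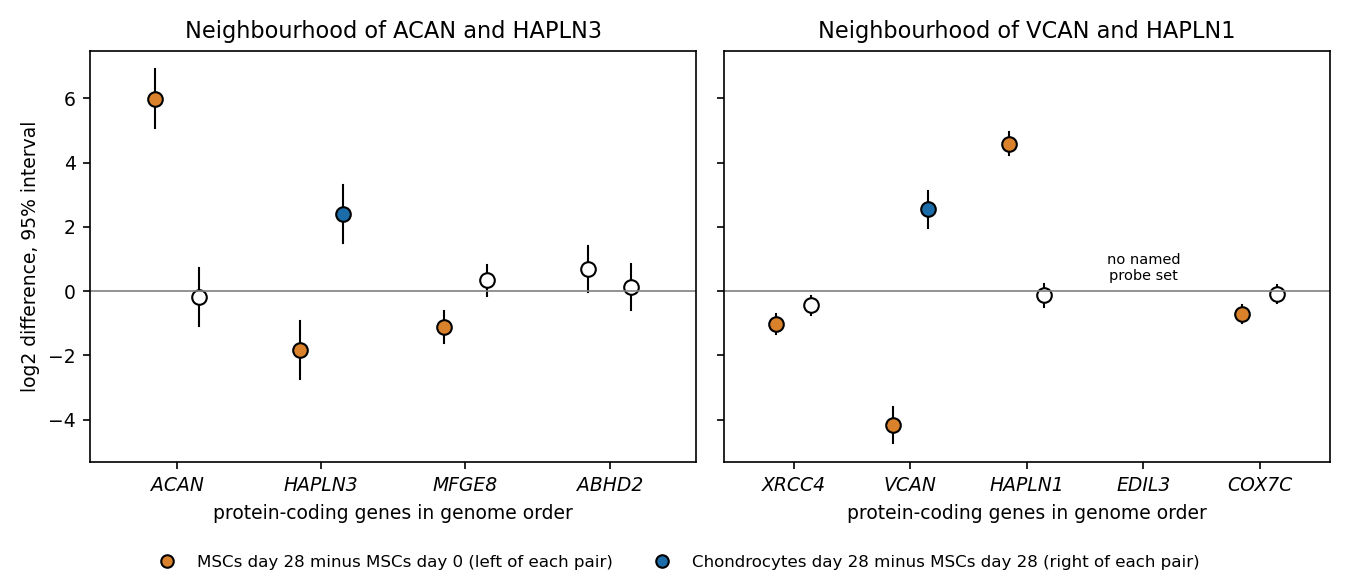
Log2 differences with 95% intervals for ACAN, HAPLN1 and their neighbours in gene order, MSCs at day 28 minus day 0 on the left of each pair and chondrocytes minus day 28 MSCs on the right. Filled points were called. ACAN (5.99) and HAPLN1 (4.59) rose beside HAPLN3 (-1.84) and VCAN (-4.16), which fell.

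HAS2 encodes the hyaluronan synthase that serves most connective tissue cells, and its 3 probe sets gave different pictures. Bt.20289.1.S1_at, the leading set, read 8.91, 9.11 and 9.05 in chondrocytes, 8.43, 8.75 and 8.16 in day 28 MSCs and 8.92, 9.06 and 8.78 in day 0 MSCs. Day 28 MSCs were the lowest group, with no overlap but a gap of 0.03 to the day 0 MSCs. The differences were -0.47 ± 0.17 in MSCs over time (interval -0.86 to -0.09, adjusted p = 0.0648) and 0.57 ± 0.17 between chondrocytes and day 28 MSCs (interval 0.19 to 0.96, adjusted p = 0.0655). Neither passed over all probe sets. With the donor as a block both passed (-0.47, adjusted p = 0.0413, and 0.57, adjusted p = 0.0420), as they did without MSC_day28 replicate 2 (-0.62, 0.0223, and 0.73, 0.0321). Chondrocytes and day 0 MSCs differed by 0.10 ± 0.17 (adjusted p = 0.696), and by -0.02 when arrays were centred on their median.

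Bt.12927.2.S1_at read 6.61, 7.14 and 6.44 in chondrocytes, 6.44, 5.99 and 5.95 in day 28 MSCs and 6.44, 6.80 and 6.32 in day 0 MSCs. Its groups overlapped in every comparison and it was called in none, with -0.39 (adjusted p = 0.230) in MSCs over time and 0.60 (0.133) between chondrocytes and day 28 MSCs. Bt.12927.1.S1_at, which the platform annotation ties to the RefSeq messenger RNA of HAS2, read 6.15, 5.64 and 6.44 in chondrocytes, 5.17, 5.23 and 5.35 in day 28 MSCs and 3.95, 3.54 and 3.62 in day 0 MSCs. Its 3 groups did not overlap, and day 0 MSCs were the lowest. It rose by 1.55 ± 0.21 in MSCs over time (2.92-fold, adjusted p = 0.000607) and was higher by 2.37 ± 0.21 in chondrocytes than in day 0 MSCs (6.06e-05). Chondrocytes exceeded day 28 MSCs by 0.82 ± 0.21 (0.0372), a call that ended in 12 of 20 alternatives, where the value ran from 0.64 to 1.04 and adjusted p reached 0.262. The sets thus disagree on the sign of the change in MSCs, and the direction of HAS2 there is uncertain. The files do not show which transcript or part of it each set reads. In all 3 sets chondrocytes had a higher mean than day 28 MSCs.

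**Figure D4:**
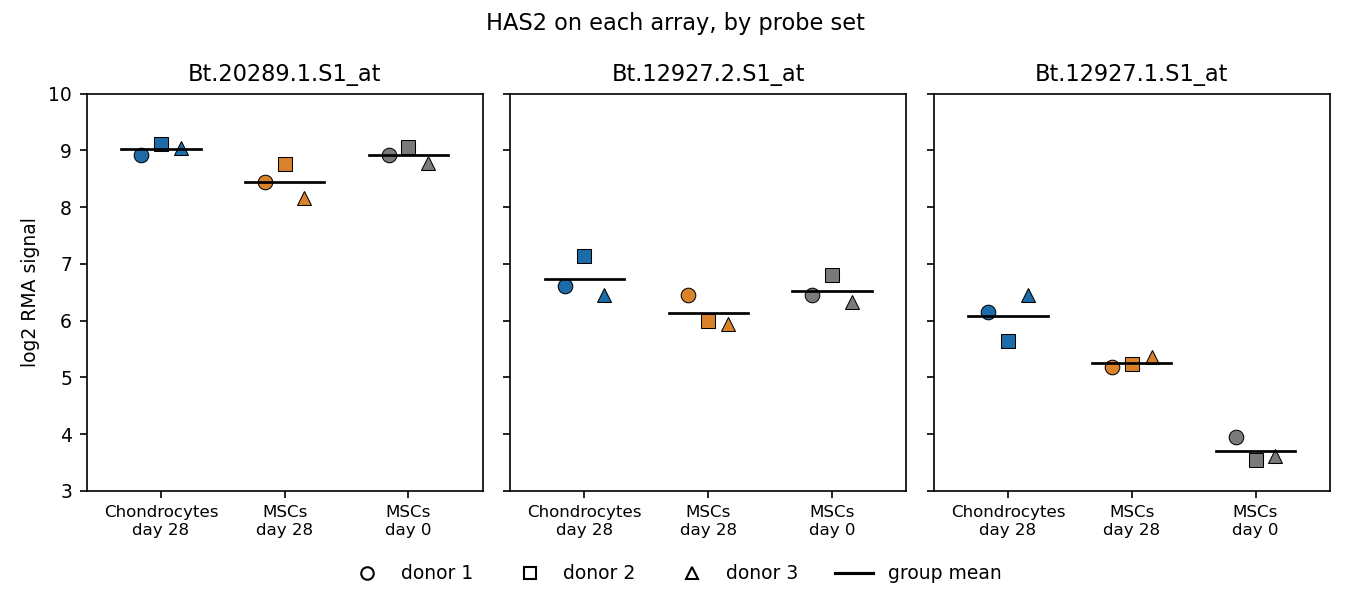
Log2 signal of HAS2 on each array by its 3 probe sets, chondrocytes at day 28, MSCs at day 28 and MSCs at day 0 from left to right, with symbols for donors and bars for group means (n = 3). Day 28 MSCs are lowest by the first and second set, and day 0 MSCs by the third.

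CD44 read 6.39, 7.45 and 7.17 in chondrocytes, 7.35, 8.17 and 7.06 in day 28 MSCs and 9.62, 10.12 and 9.50 in day 0 MSCs. Every day 0 array lay above every day 28 array, and the day 28 groups overlapped. CD44 fell by 2.22 ± 0.34 in MSCs over time (4.66-fold lower, adjusted p = 0.00127), with -2.27, -1.96 and -2.43 in the donors. It was lower by 2.74 ± 0.34 in chondrocytes than in day 0 MSCs (-2.74, 6.69-fold, 0.000407). Chondrocytes differed from day 28 MSCs by -0.52 ± 0.34 (interval -1.30 to 0.26, adjusted p = 0.418), with donors 1 and 2 lower in chondrocytes (-0.96 and -0.72) and donor 3 at 0.11.

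CD44 is abundant on blood cells, which can accompany marrow cultures, and their 8 markers were measured on the same arrays. Their mean was 4.45, 4.35 and 4.47 in chondrocytes, 3.89, 3.92 and 4.0 in day 28 MSCs and 5.0, 5.15 and 3.81 in day 0 MSCs. Of these 8 markers, 4 fell and 1 rose in MSCs over time, where 34.5% of all genes were called. In day 0 MSCs 2 of the 8 markers, PTPRC and HBB, lay below the 25th percentile of probe set means (2.58). Their part in the CD44 result was not tested.

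TNFAIP6 was highest in chondrocytes. Its leading set, Bt.958.1.A1_at, read 11.38, 12.05 and 10.98 in chondrocytes, 7.89, 7.95 and 8.77 in day 28 MSCs and 6.94, 6.31 and 7.20 in day 0 MSCs, with no overlap between groups. Chondrocytes exceeded day 28 MSCs by 3.27 ± 0.34 (9.63-fold, adjusted p = 0.000510), the 85th largest absolute difference of 9155 genes, and by 3.49, 4.09 and 2.22 in the donors. The excess over day 0 MSCs was 4.65 ± 0.34 (25.2-fold, 2.19e-05). The second set, Bt.958.2.S1_at, read 9.41, 10.57 and 9.16 in chondrocytes, 5.72, 5.94 and 6.55 in day 28 MSCs and 5.48, 5.24 and 5.46 in day 0 MSCs, and gave 3.64 ± 0.35 (0.000316) and 4.32 ± 0.35 (3.77e-05) for these comparisons. In donor 3, where the chondrocyte signal was lowest and the day 28 MSC signal highest, the gap was the smallest on both sets.

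In MSCs over time TNFAIP6 rose by 1.39 ± 0.34 by the leading set (2.62-fold, adjusted p = 0.0139), and its second set, at 0.68 ± 0.35, did not pass (0.189). The call ended without MSC_day0 replicate 2, the lowest array (1.13, 0.0512), and without donor 1 (1.61, 0.0838). The rise in MSCs was thus called by 1 of 2 sets, whereas the difference between chondrocytes and day 28 MSCs was called by both sets in each alternative run, at 2.85 to 3.79 on the leading set.

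Order by mean signal differs between the genes. ACAN and HAPLN1 had both day 28 groups at the top, with no called difference between them, and day 0 MSCs lowest. CD44 had day 0 MSCs at the top and the day 28 groups below, again with no called difference between those. TNFAIP6 ran from chondrocytes through day 28 MSCs to day 0 MSCs with each step called by its leading set. The step between the MSC groups was not called by its second set. HAPLN3 had chondrocytes and day 0 MSCs at the top, not called apart, with day 28 MSCs lowest. The order for HAS2 depended on the probe set.

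The genes whose profiles over the 9 arrays lay closest to each member were found by the root mean square (RMS) difference between profiles centred on their own mean, among 9027 genes. This describes likeness over 9 arrays of 3 groups and shows nothing of shared function. For ACAN they were COL9A1 (RMS 0.551), COL2A1 (0.553) and SORL1 (0.579), where the SD of ACAN itself was 2.99. COL2A1 encodes the main collagen of hyaline cartilage and COL9A1 a collagen on its fibrils. For HAPLN1 they were WWP2, a ubiquitin ligase (0.271), THPO, the platelet growth factor thrombopoietin (0.386), and PTPRU, a receptor phosphatase (0.404), against an SD of 2.27. The nearest to CD44 (SD 1.33) were PLXDC2 (0.291), the complement protease C1S (0.303) and the autophagy receptor OPTN (0.305). For TNFAIP6 (SD 2.11) they were TPD52L1 (0.427), the matrix protein TGFBI (0.466) and FAM174B (0.481). HAPLN3 (SD 1.20) lay closest to FEN1, a nuclease of DNA replication (0.409), MEDAG (0.414) and the tubulin TUBA1A (0.429). The leading HAS2 set (SD 0.32) lay closest to SEC61A1, the channel of the secretory pathway (0.0693), the kinase MAP2K3 (0.0799) and YWHAH (0.105). SEC61A1 had group means of 10.86 in chondrocytes, 10.39 in day 28 MSCs and 10.88 in day 0 MSCs.

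Genes that make, bind or cut hyaluronan and aggrecan were followed in 8 lists, of which 45 of 61 genes were named on the array. In MSCs over time, 5 of these 45 rose and 12 fell, against 34.5% of all genes called (13.5% higher and 21% lower), with a median of -0.16 beside -0.11 over all genes. Between chondrocytes and day 28 MSCs, 9 were higher and none lower by limma, against 13.2% of all genes (8.35% higher and 4.81% lower). The median was 0.10 beside -0.02 over all genes. At an unadjusted p under 0.05 the counts were 14 and 1. For that threshold no share of all genes is given, here or below. Between chondrocytes and day 0 MSCs, 10 were higher and 8 lower, against 36% of all genes, with a median of -0.04 beside -0.12. Without the 2 arrays with low controls the counts were 4 and 10, 6 and 0, and 9 and 5, with no share of all genes given for that fit. Of the 44 calls of list genes over the 3 comparisons, 15 ended without some single array, 14 more only without a donor, and 15 in neither case. The 14 were UGP2, PGM3, GUSB, LYVE1, ITIH2, MMP14 and MMP9 in MSCs over time, GNPNAT1, LYVE1 and TLR2 between chondrocytes and day 28 MSCs, and HYAL1, HEXA, MMP9 and XYLT2 between chondrocytes and day 0 MSCs, at adjusted p up to 0.124.

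**Figure D5:**
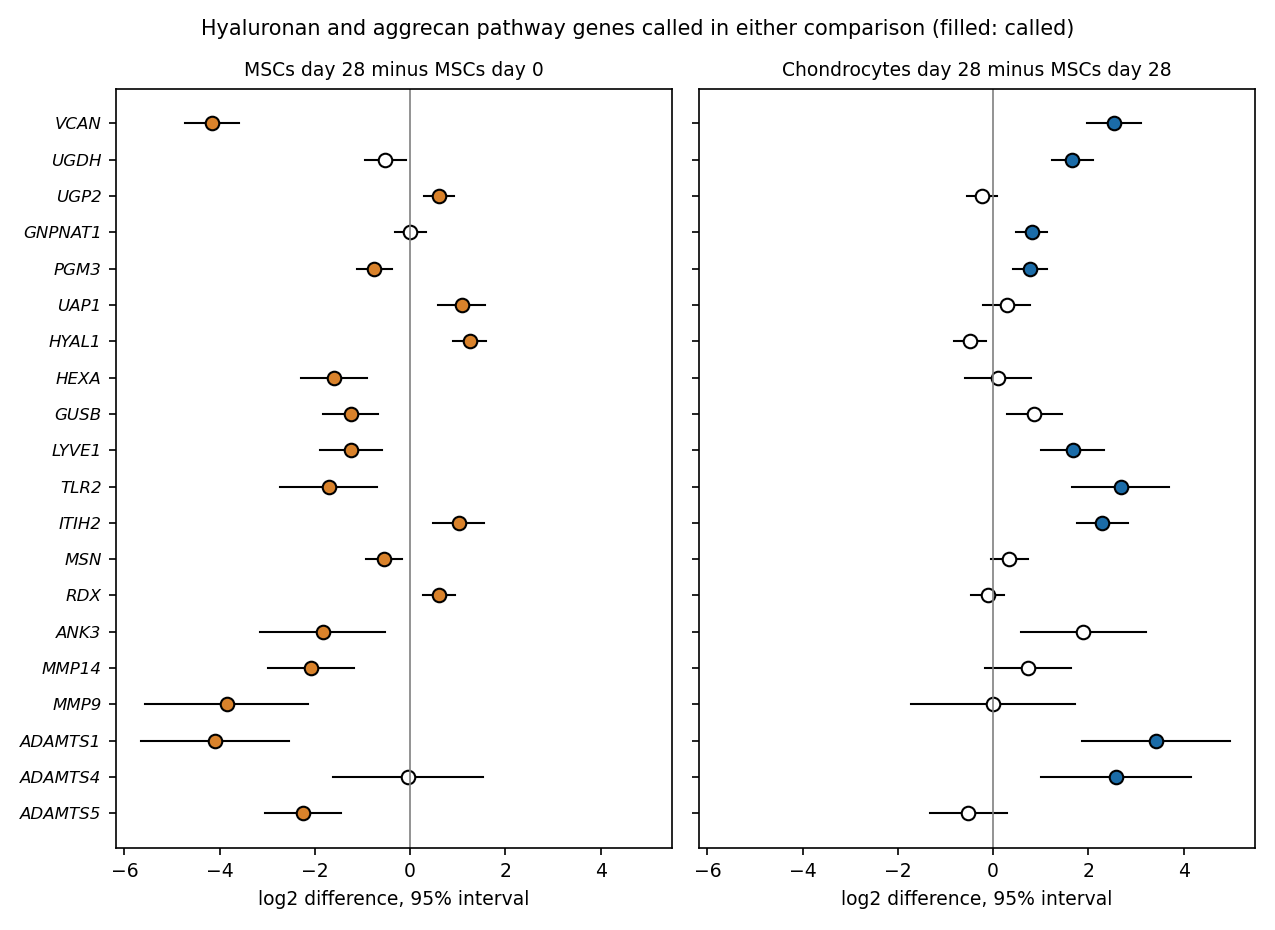
Log2 differences with 95% intervals of the 20 list genes called in either comparison, MSCs at day 28 minus day 0 on the left and chondrocytes minus day 28 MSCs on the right. Filled points were called. All 9 filled points on the right lie above 0, and VCAN, PGM3, LYVE1, TLR2 and ADAMTS1 are filled below 0 on the left and above 0 on the right.

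Among 8 measured genes of hyaluronan synthesis and its sugar nucleotides, 2 rose and 1 fell in MSCs over time, and 3 were higher in chondrocytes than in day 28 MSCs. Over all genes, 34.5% and 13.2% were called in these comparisons. UGDH, which makes the UDP-glucuronic acid used for hyaluronan and chondroitin chains, read 11.15, 11.12 and 11.01 in chondrocytes, 8.96, 9.69 and 9.63 in day 28 MSCs and 9.85, 10.00 and 10.00 in day 0 MSCs. It was higher by 1.66 ± 0.19 in chondrocytes than in day 28 MSCs (adjusted p = 0.000908) and by 1.14 ± 0.19 than in day 0 MSCs (0.00205), with no overlap. Of 4 measured enzymes toward UDP-N-acetylglucosamine, GNPNAT1 was higher by 0.81 ± 0.15 (0.00864) and PGM3 by 0.77 ± 0.16 (0.0158) in chondrocytes than in day 28 MSCs, and GFPT1 (0.74 ± 0.37, 0.263) and UAP1 (0.29 ± 0.22, 0.492) did not pass. The GNPNAT1 call ended without any 1 of the 3 donors, at 0.65 to 0.90 with adjusted p up to 0.124. The PGM3 call ended without chondrocytes_day28 replicate 2 or 3 or MSC_day28 replicate 1, at 0.70 to 0.90 with adjusted p up to 0.0521 over the fits without 1 array. In MSCs over time UGP2, which makes UDP-glucose, rose by 0.61 ± 0.14 (0.00931) and UAP1, which makes UDP-N-acetylglucosamine, by 1.09 ± 0.22 (0.00485), while PGM3 fell by 0.75 ± 0.16 (0.00677). The 2 further UAP1 sets, at 0.36 and 0.09, did not pass, while the second GFPT1 set did (1.15, 0.0306) and the first did not (0.53, 0.320). The other synthases did not pass in any comparison, with group means from 3.01 to 3.25 for HAS1 and from 2.91 to 3.18 for HAS3. Chondrocytes also exceeded day 0 MSCs in UAP1 (1.38), GNPNAT1 (0.82) and GFPT1 (1.27 ± 0.37, 0.0267), the last ending without any of 5 of the 6 arrays (1.10 to 1.41, adjusted p up to 0.0921).

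Of 7 genes of hyaluronan breakdown, HYAL1, a lysosomal hyaluronidase, rose by 1.25 ± 0.15 in MSCs over time (adjusted p = 0.000347), and the lysosomal enzymes HEXA (-1.60 ± 0.31, 0.00391) and GUSB (-1.25 ± 0.25, 0.00524), which trim sugars from the chain ends, fell. None of the 7 was called between chondrocytes and day 28 MSCs by limma, where 13.2% of all genes were called. There, 2 were higher and 1 lower at an unadjusted p under 0.05. GUSB came nearest (0.87 ± 0.25, adjusted p = 0.0631). Chondrocytes exceeded day 0 MSCs in HYAL1 (0.77 ± 0.15, 0.00483) and had less HEXA (-1.50 ± 0.31, 0.00556). HYAL3, at group means of 2.01 in chondrocytes and 2.5 in day 0 MSCs, both below the 25th percentile, was called lower (-0.49, 0.0464), a call that ended in 14 of 18 alternatives, the donor block among them, and without any of 5 of the 6 arrays (-0.64 to -0.36).

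Among 6 other hyaluronan receptors, LYVE1, known from lymphatic vessels and tissue macrophages, and TLR2, an innate immune receptor, were lowest in day 28 MSCs. TLR2 read 6.13, 7.32 and 6.94 in chondrocytes, 4.70, 3.20 and 4.43 in day 28 MSCs and 6.28, 5.97 and 5.22 in day 0 MSCs. It was higher by 2.68 ± 0.45 in chondrocytes than in day 28 MSCs (adjusted p = 0.00590) and fell by 1.71 ± 0.45 in MSCs over time (0.0182). The fall ended without MSC_day0 replicate 1 or 2, with -1.25 as the smallest change in size and an adjusted p up to 0.0697. It also ended without donor 1 or donor 2 (adjusted p up to 0.117). Day 0 replicates 1 and 2 had more TLR2 signal and more blood cell markers than replicate 3. The part of blood cells here was not tested. LYVE1 was higher by 1.67 ± 0.29 in chondrocytes than in day 28 MSCs (0.00688) and fell by 1.24 ± 0.29 in MSCs (0.0104), at a low day 28 MSC mean of 1.73, and its second set did not pass (0.62 and -0.50). HMMR, STAB1, STAB2 and TLR4 were not called by their leading sets, HMMR at 0.42 ± 0.40 in MSCs (adjusted p = 0.484) and 0.68 ± 0.40 between chondrocytes and day 28 MSCs (0.354). A further HMMR set was called between chondrocytes and day 0 MSCs (1.31, 0.0271).

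The heavy chains that TNFAIP6 moves onto hyaluronan come from the ITIH genes. ITIH2, 1 of these chains, read 4.89, 5.29 and 4.85 in chondrocytes, 2.35, 2.69 and 3.12 in day 28 MSCs and 1.68, 1.38 and 2.02 in day 0 MSCs, with no overlap. It was higher by 2.29 ± 0.24 in chondrocytes than in day 28 MSCs (adjusted p = 0.000472) and by 1.02 ± 0.24 in day 28 than in day 0 MSCs (0.0103). The MSC call ended without donor 2 (adjusted p = 0.0910), and its day 0 mean of 1.69 lay below the 25th percentile, with the day 28 MSC mean at 2.72, so that the size of the MSC difference rests on low signals. ITIH1, ITIH3 and AMBP, the light chain gene, did not pass in any comparison by their leading sets, with group means from 2.72 to 3.47. A further ITIH1 set was called lower in chondrocytes than in day 0 MSCs (-0.52, 0.0167), at a mean of 2.25 over the 9 arrays. PTX3, a pentraxin that crosslinks the modified hyaluronan, read 4.62, 2.57 and 5.17 in chondrocytes, 2.96, 2.29 and 1.58 in day 28 MSCs and 2.13, 2.56 and 1.62 in day 0 MSCs. Donor 2 chondrocytes thus lay near the MSCs. Its excess over day 0 MSCs (2.01 ± 0.62, 0.0353) ended without any of 5 of the 6 arrays, at 1.49 to 2.79, and that over day 28 MSCs did not pass (1.84 ± 0.62, 0.0986). ITIH4 exceeded day 0 MSCs by 0.90 ± 0.24 in chondrocytes (0.0200). That call ended without MSC_day0 replicate 1 or 2 (adjusted p up to 0.0606) and without donor 1 or donor 2 (up to 0.0955).

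Of 7 partners of CD44, 4 fell and 1 rose in MSCs over time, where 34.5% of all genes were called. None was called between chondrocytes and day 28 MSCs by limma, where 13.2% of all genes were called. There, ANK3 alone had an unadjusted p under 0.05 (1.90 ± 0.58, adjusted p = 0.0729), which makes 1 of 7. MMP9, a gelatinase that docks on CD44, read 1.96, 1.75 and 2.52 in chondrocytes, 1.65, 2.52 and 2.09 in day 28 MSCs and 6.33, 7.60 and 3.89 in day 0 MSCs. It fell by 3.85 ± 0.76 (0.00448), and its day 0 signal was lowest in donor 3, as were the blood cell markers, whose part in this was not tested. MMP14, the membrane protease that sheds CD44, fell by 2.08 ± 0.40 (0.00390), with 2 further sets called at -0.93 and -1.66. The cytoskeletal linkers split: MSN fell by 0.55 ± 0.17 (0.0381), RDX rose by 0.60 ± 0.15 (0.0145), EZR changed by -0.02 ± 0.12 (0.907) and ANK3 fell by 1.84 ± 0.58 (0.0391). The MSN, RDX and ANK3 calls ended without 4, 2 and 5 of the 6 single arrays, with ranges of -0.67 to -0.39, 0.53 to 0.73 and -2.58 to -1.12. In chondrocytes against day 0 MSCs, MMP9 (-3.86 ± 0.76, 0.00459) and MMP14 (-1.36 ± 0.40, 0.0295) were lower and RDX higher (0.49 ± 0.15, 0.0359). The calls of MMP14 and RDX there each ended without 4 of the 6 single arrays, at -1.73 to -1.01 and 0.42 to 0.62. The 2 further MMP14 sets were called there too (-0.90, 0.00134, and -1.41, 0.00181).

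Of 5 genes of aggrecan cleavage, ADAMTS5, a main aggrecanase of cartilage in mice, fell by 2.25 ± 0.36 in MSCs over time (adjusted p = 0.00145), and its second set by 1.74 ± 0.34 (0.00435). It read 3.39, 2.83 and 2.59 in chondrocytes, 3.54, 3.67 and 3.15 in day 28 MSCs and 4.95, 5.71 and 6.44 in day 0 MSCs, and was lower by 2.77 ± 0.36 in chondrocytes than in day 0 MSCs (-2.77, 0.000476). ADAMTS1, a protease that cuts aggrecan and versican, read 4.87, 5.80 and 6.19 in chondrocytes, 2.46, 2.55 and 1.61 in day 28 MSCs and 4.69, 6.39 and 7.81 in day 0 MSCs. It fell by 4.09 ± 0.69 in MSCs (0.00191) and was higher by 3.42 ± 0.69 in chondrocytes than in day 28 MSCs (0.0139). The call of that excess of ADAMTS1 ended without chondrocytes_day28 replicate 2 (adjusted p = 0.0557) and without donor 2 (0.164). It also ended without the 2 arrays with low controls. Its second set, at -0.39 and 0.24, did not pass. ADAMTS4, another aggrecanase, read 5.66, 6.44 and 7.57 in chondrocytes, 2.86, 3.92 and 5.14 in day 28 MSCs and 2.84, 4.61 and 4.61 in day 0 MSCs. It was higher by 2.59 ± 0.70 in chondrocytes than in day 28 MSCs (0.0471), a call that ended without any of 5 of the 6 arrays (2.03 to 3.17, adjusted p up to 0.133), and by 2.54 ± 0.70 than in day 0 MSCs (0.0219), which ended without 3 of 6 (1.95 to 2.99). TIMP3, an inhibitor of these proteases, was lower in chondrocytes than in day 0 MSCs (-1.38 ± 0.43, 0.0371), and the call ended without any of 5 of the 6 arrays (-1.66 to -1.07). Of 2 genes that start the glycosaminoglycan chains, XYLT2 was lower in chondrocytes than in day 0 MSCs (-0.76 ± 0.18, 0.00999) and not called otherwise, and B3GAT3 was called in no comparison.

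Of the hyalectans and link proteins beyond the 6 genes, VCAN was the only 1 of 4 called in these comparisons. Over all genes 34.5% were called in MSCs over time, 13.2% between the day 28 groups and 36% between chondrocytes and day 0 MSCs. NCAN and BCAN, the brain proteoglycans, had group means from 1.79 to 2.69, and HAPLN2, a brain link protein, from 3.60 to 3.83, with no call in any comparison.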

How the data were processed

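The deposited table holds log2 values of 9 arrays, made by the authors with RMA per the submitters' processing notes, in a version not given in the sources used here. RMA brings the arrays toward 1 distribution, so a shift of most transcripts can be hidden. The deposited distributions were not identical, with array medians from 4.91 to 5.10 over the tested probe sets. Per the labels' protocols, cDNA was primed with poly(T) and amplified, which favours the 3′ end. Of 24128 probe sets, 112 controls were left out, and no filter on low signal was applied. All 11 probe sets of the 6 genes had means above the median of all probe set means (4.99). Of those tested, 13292 had 1 symbol, 86 several and 10638 none, by the platform annotation updated through a RefSeq table (ARS-UCD2.0), which was also used for the order of genes.

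A model of 3 group means was fitted with limma 3.58.1 (R 4.3.3, lmFit and eBayes), with p adjusted over 24016 probe sets per comparison. The script was tested on simulated data. The number of arrays limits the precision.

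Per the labels, equal donor numbers mark the same calf, so the numbers pair the arrays. Deviations from group means correlated at 0.108 to 0.412 within donors (9 pairs) and -0.303 to 0.152 between donors (18 pairs). The model without the donor was used, and the donor block was an alternative. The other alternatives were scalings, filters, variance models, probe set rules and left-out arrays or donors.

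Named genes were the 6 members, the list genes called or of smallest p per list and comparison, and the 3 nearest profiles per member. Markers, neighbours in gene order and the genes given beside them were described as well. The members and lists were chosen with earlier results of these data known. Alternatives for list genes and neighbours were chosen after seeing the data.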

Additional observations from a re-analysis of the deposited data

How the results depend on the processing

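The calls and directions of ACAN, HAPLN1 and CD44 were the same in all 22 alternatives of each comparison, as were those of TNFAIP6 between chondrocytes and either MSC group. HAS2 depended on the setting. In MSCs over time its difference was -0.47 with the donor block (adjusted p = 0.0413) and -0.53 with arrays centred on their median (0.0417), both passing, but 0.23 with the mean of its probe sets (0.171) and 1.55 with the set of largest SD (0.000600). Between chondrocytes and day 28 MSCs it passed at 0.57 with the donor block (0.0420), 0.69 with centring on 74 ribosomal protein genes (0.0234), 0.62 with cyclic loess (0.0471), 0.67 with the mean of sets (0.00608) and 0.82 with the set of largest SD (0.0334). Between chondrocytes and day 0 MSCs it was -0.0168 with the array median, and passed at 0.89 (0.000489) and 2.37 (5.59e-05) with the mean of sets and the set of largest SD. HAPLN3 passed there at 0.91 with low controls as a term (0.0305). The donor block, which pairs arrays of the same calf, otherwise changed no call of the members, and among called list genes ended those of HYAL3 and RDX between chondrocytes and day 0 MSCs.

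Leaving out 1 array or 1 donor gave -0.62 to -0.33 for HAS2, 1.10 to 1.61 for TNFAIP6 and -2.12 to -1.40 for HAPLN3 in MSCs over time, and 0.42 to 0.73 for HAS2 and 1.96 to 2.65 for HAPLN3 between chondrocytes and day 28 MSCs. Called probe sets of the 6 genes numbered 2 to 4 in that comparison, with 2 without donor 1 or donor 2. Over all probe sets the calls numbered 4292 to 6719 in MSCs over time, 747 to 2598 between chondrocytes and day 28 MSCs and 3344 to 6521 between chondrocytes and day 0 MSCs, lowest without donor 1 each time. Such fits have fewer arrays.

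Centring on ribosomal protein genes shifted the median probe set by 0.12 between chondrocytes and day 28 MSCs and by 0.16 between chondrocytes and day 0 MSCs. The split of higher and lower calls was then 1921 and 678, against 1506 and 976, and 4559 and 2681, against 3622 and 3823. With the array median, which moved the last median by -0.12, the splits were 1344 and 1359, and 3110 and 5255.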

Other observations

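The blood cell markers set the day 0 MSCs of donor 3 apart from those of donors 1 and 2, with a mean of 3.81 against 5.0 and 5.15. Among the genes described above, MMP9 was likewise lowest in donor 3 on these arrays (3.89 in donor 3, 6.33 and 7.60 in donors 1 and 2), as was TLR2 (5.22 against 6.28 and 5.97), whereas the leading ACAN set was highest in donor 3 (7.50 against 5.63 and 6.63). These are values of single arrays and were not tested.

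Some deposited values repeat between arrays to every digit. Of the tested probe sets, 8611 hold such a repeat, among them 3 of the 11 described here. The HAS2 set Bt.12927.2.S1_at holds 6.44444 on 3 arrays, 1 in each group, and that value occurs 57 times in 54 probe sets of the table. It also stands on the HAS2 set Bt.12927.1.S1_at in chondrocytes of donor 3. ADAMTS5 holds it in day 0 MSCs of donor 3 and ADAMTS4 in chondrocytes of donor 2, so that called differences include it. The cause was not tested.

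In gene order PAMR1 lies 2 places to one side of CD44. It was higher by 3.21 ± 0.41 in chondrocytes than in day 28 MSCs (adjusted p = 0.00153), a call that ended without donor 2 (adjusted p = 0.0570), while the second PAMR1 set was not called. APIP, 2 places to the other side, was lower there by 0.86 ± 0.18 (-0.86, 0.0152). That call ended without chondrocytes_day28 replicate 2 or 3 (adjusted p up to 0.0539) and without donor 1 or donor 2 (up to 0.162). CD44 between them was not called in that comparison.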
